A study of Mus musculus with 3 samples.

Results

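Shared LMX1B intervals outside genes are stretches of chromatin that 2 separate LMX1B ChIP-seq peak lists both contain and that lie between genes. Intervals were chosen by the overlap of the called positions: an interval of the first ChIP was taken when it overlapped an interval of the validation ChIP by at least 1 bp, and when its midpoint lay outside every RefSeq gene body, of any biotype, and more than 1 kb from any gene end. This gave 301 intervals, out of 707 shared intervals in all and of 1287 intervals in the first ChIP (23.4%). The validation ChIP listed 4501 intervals. The 301 fell on 296 distinct validation intervals, because 11 of them shared a validation interval with a neighbour or with another shared interval. The remaining shared intervals lay inside gene bodies (298) or within 1 kb of a gene end (108).

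Both ChIP samples were made from C57BL/6 mouse limb buds taken at e12.5, with fore- and hindlimb buds pooled in 2 runs of 48 buds. The antibody was the LMX1B polyclonal BMO8, written BM08 in another label. The first ChIP is named wild type in its track, and the validation ChIP has no genotype in its track name; the labels do not say whether both used the same chromatin. An input sample of pooled WT and mutant chromatin was not used here. Each group is 1 sample of whole limb buds, so no spread between replicates could be measured, and dorsal cells were not separated from the rest. The lists hold no expression values, so the tissue label was not checked against marker genes.

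LMX1B is a LIM homeodomain transcription factor made in dorsal limb mesenchyme under the control of ectodermal WNT7A, and it gives the limb its dorsal character. LIM homeodomain proteins bind A/T-rich DNA through a TAAT core and act with LDB cofactors, which can join distant sites. In limb development many patterning genes, among them the Hox clusters, are controlled by enhancers in gene-poor stretches far from the genes, which are often called gene deserts. Intervals outside genes are the class in which such distant enhancers would be listed, but an interval says only where signal was called.

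The sequences of the intervals themselves are not shown, since no genome sequence was used here. Promoters of the genes on either side could be read from RefSeq (GRCm38.p6, which has the same chromosomes as mm10). The protein-coding gene next to an interval on either side, at most 1 Mb away, is called a flanking gene here. Of 386 flanking genes, 287 had a promoter in the table. An interval of either list overlapped the 300 bases round a start site (250 before and 50 after) in 17 of the 287 (5.92%), against 2.78% of 17492 protein-coding genes. Validation intervals lay there at 14 genes (4.88%, against 1.89%) and first-ChIP intervals at 5 (1.74%, against 1.13%). No test was applied to these shares. The 4 such genes that belong to the limb gene lists described further on are shown because their own promoter and a distant interval were both listed. They are Lmx1b, Tbx18, Hand2 and Dusp6, which encode LMX1B itself, a T-box factor, a basic helix-loop-helix factor and a phosphatase induced by FGF signalling. Each line runs 5′ to 3′ up to the start site or, for Lmx1b, up to the edge of the gene body, with capitals on each TAAT found on either strand.
Dusp6, chr10:99262981-99263230, plus strand: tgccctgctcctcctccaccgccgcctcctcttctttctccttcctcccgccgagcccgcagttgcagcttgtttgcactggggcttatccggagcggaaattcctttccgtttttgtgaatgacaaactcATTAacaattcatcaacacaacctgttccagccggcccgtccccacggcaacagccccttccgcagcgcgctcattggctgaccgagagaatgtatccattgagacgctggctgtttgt
Hand2, chr8:57320733-57320982, plus strand: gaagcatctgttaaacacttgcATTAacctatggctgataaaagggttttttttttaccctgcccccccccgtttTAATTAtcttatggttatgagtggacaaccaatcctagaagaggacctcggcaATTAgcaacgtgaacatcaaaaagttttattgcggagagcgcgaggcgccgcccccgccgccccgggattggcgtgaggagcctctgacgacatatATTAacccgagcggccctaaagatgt
Lmx1b, chr2:33641209-33641348, minus strand: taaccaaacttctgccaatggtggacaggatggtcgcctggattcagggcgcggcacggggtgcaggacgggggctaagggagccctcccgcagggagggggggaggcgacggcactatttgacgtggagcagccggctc
Tbx18, chr9:87731261-87731510, minus strand: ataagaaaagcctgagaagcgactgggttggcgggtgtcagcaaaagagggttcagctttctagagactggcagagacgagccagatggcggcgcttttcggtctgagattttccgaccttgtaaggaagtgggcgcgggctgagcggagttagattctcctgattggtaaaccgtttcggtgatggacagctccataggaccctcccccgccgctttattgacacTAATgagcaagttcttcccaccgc

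The validation ChIP listed all 4 of these promoters. Its scores there were 16 at Dusp6, 16 at Tbx18, 12 at Hand2 and 10 at Lmx1b, where the median over its whole list was 11. The first ChIP listed only the promoter of Dusp6, with a score of 20, so that this promoter interval was itself shared. TAAT occurred 5 times in the Hand2 stretch, once each in Dusp6 and Tbx18 and not in the 140 bases shown for Lmx1b. Over the full 250 bases before the start, the same 3 of the 4 promoters held it, against 50.4% of 17492 promoters. The longer LIM homeodomain core TAATTA, which reads the same on both strands and contains TAAT, was found in Hand2 and in 4.46% of all promoters. CCAAT, bound by NF-Y, was found in all 4, against 36.5% of all promoters. CATCTG, an E-box bound by TWIST and HAND type factors, was found in Hand2 and Tbx18, against 12.6%. A letter match is not a binding site, and 25 motifs were searched.

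The score of an interval is the authors' deposited whole-number value at its summit, with no stated unit. It serves here only to rank intervals within a list. The overlap of the lists chose the intervals, so scores are given as a description. In the first ChIP, scores of the 301 intervals ran from 14 to 81 with a median of 22, beside 20 for the whole list. In the validation ChIP they ran from 8 to 43 with a median of 16, beside 11. Shared intervals inside gene bodies had the same medians, 22 and 16, and those at gene ends 21.5 and 14. Intervals outside genes that only the first ChIP listed (143) had a median of 18, and those that only the validation ChIP listed (1403) had 11.

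**Figure D1:**
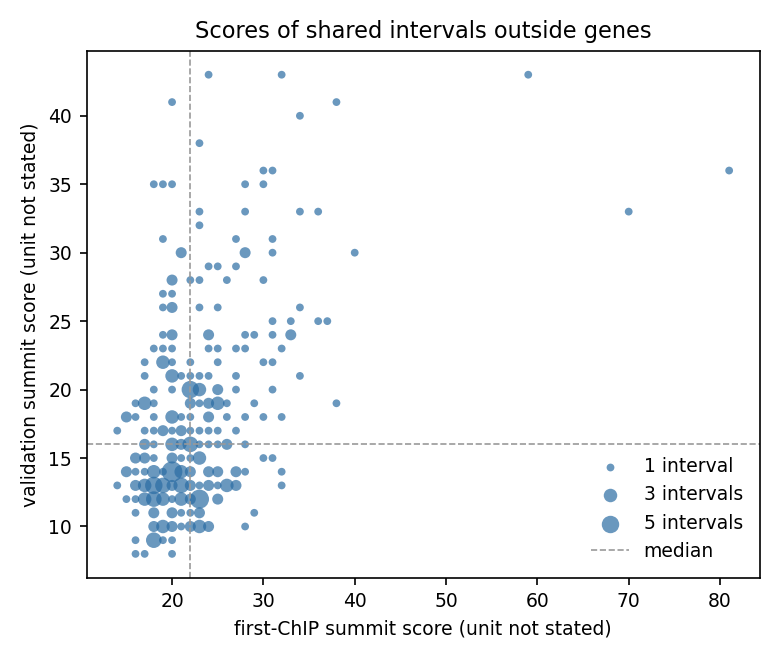
Summit scores of the 301 shared intervals outside genes in the first ChIP (x axis) and the validation ChIP (y axis), both without a stated unit. Point area gives the number of intervals with the same pair of scores and dashed lines mark the medians, 22 and 16. Most points crowd at low scores in both lists, and the interval with the highest first-ChIP score, 81, had 36 in the validation ChIP.

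The order of the intervals was loosely alike in both lists, with a Pearson r of 0.471 and a Spearman rho of 0.392 over the 301 pairs. The points are intervals of 2 single libraries that were chosen for overlapping, so no p is given. For shared intervals in gene bodies r was 0.611, and at gene ends 0.0389. Of the 30 highest in each list, ties included, 14 of the intervals outside genes stood in both.

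The pairs were chosen because their intervals overlap, so short distances between their summits follow in part from the rule. Summits lay a median of 64 bp apart, and in 229 of 301 pairs (76.1%, 95% Wilson interval 71.0 to 80.6) they were within 100 bp. That share was 73.8% for shared intervals in gene bodies and 68.5% for those at gene ends. In 22 of the 301 pairs the summits were at the same base, where most summits fall on a grid of 16 bp (96.3% in the first list and 94.4% in the validation list). Validation intervals were wider, with a median of 759 bp against 430 bp, and 218 of the 301 first-ChIP intervals lay wholly inside their partner. Wilson intervals here and below treat intervals as independent and cover counting error only.

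At the limits of the rule, the smallest overlaps kept were 35 bp (chr6:51172545-51172825), 41 bp (chr11:40393902-40394175) and 48 bp (chr13:39979252-39979610). Their first-ChIP scores were 16, 17 and 17 and their validation scores 15, 16 and 12. Just outside, first-ChIP intervals with scores of 19, 21 and 17 missed a validation interval by 44 bp (chr9:35326501-35326797), 81 bp (chr9:87377529-87378022) and 93 bp (chr11:24643009-24643382). The 3 kept were thus below the first list's median of 20, and of the 3 missed the one with 21 was above it. Nearest to the gene margin were intervals 1.006 kb from Pdlim5, 1.03 kb from Gm2594 and 1.16 kb from Slc14a2, while shared intervals between genes but 0.936 kb from Golga5, 0.808 kb from Gm12292 and 0.777 kb from Gm46796 were left out. The first-ChIP scores of the 3 inside were 23, 20 and 30, and those of the 3 outside 23, 29 and 21. The rule also left out a shared interval at chr19:56086465-56086953, with a validation score of 55, because it lies in the lncRNA gene Gm52387; another 7 in protein-coding bodies, from Dnm3 (51) to Bend4 (44), also scored above every interval outside genes.

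The median distance from midpoint to the nearest protein-coding gene end was 135 kb (95% interval of the median 113 to 169.9), beside 86.3 kb for first-ChIP-only and 92.8 kb for validation-only intervals outside genes. Positions on a regular grid of 10 kb over the space outside genes had a median of 93.8 kb. The grid took in chromosome X (110 of 1267 Mb), which held none of the 301. It was not limited to sequence where intervals can be called. At middle distances the shares differed most: 152 intervals (50.5%, 44.9 to 56.1) were 100 to 500 kb away, against 33.5% of grid positions. Both nearer and farther classes held fewer than the grid, with 7.64% against 14.3% at 1 to 10 kb and 8.64% against 15.2% beyond 500 kb. The rule used the distance from genes, so these shares describe the set and were not tested. Scores did not follow the distance: first-ChIP medians were 22, 22, 22 and 20 from the nearest to the farthest class, and validation medians 16, 16, 17 and 15.

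The side of the gene was not itself used by the rule, but the 1 kb margin leaves out intervals close to gene ends. The nearest protein-coding gene had a strand in the RefSeq promoter table for 222 of the 301. Of these, 133 intervals (59.9%, 53.3 to 66.1) lay beyond the 3′ end and 89 (40.1%) before the 5′ end. Grid positions were beyond the 3′ end in 47.3%, validation-only intervals in 51.5% (48.5 to 54.5) and first-ChIP-only intervals in 52.5% (43.6 to 61.3). Under 8 other ways of choosing the intervals the share ran from 55.9% to 62.2%. The lowest was with no margin round gene ends (142 of 254) and the highest with at least 50% overlap of both intervals. Genes without a strand in the table left 79 intervals out, and the difference between the sets was not tested.

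**Figure D2:**
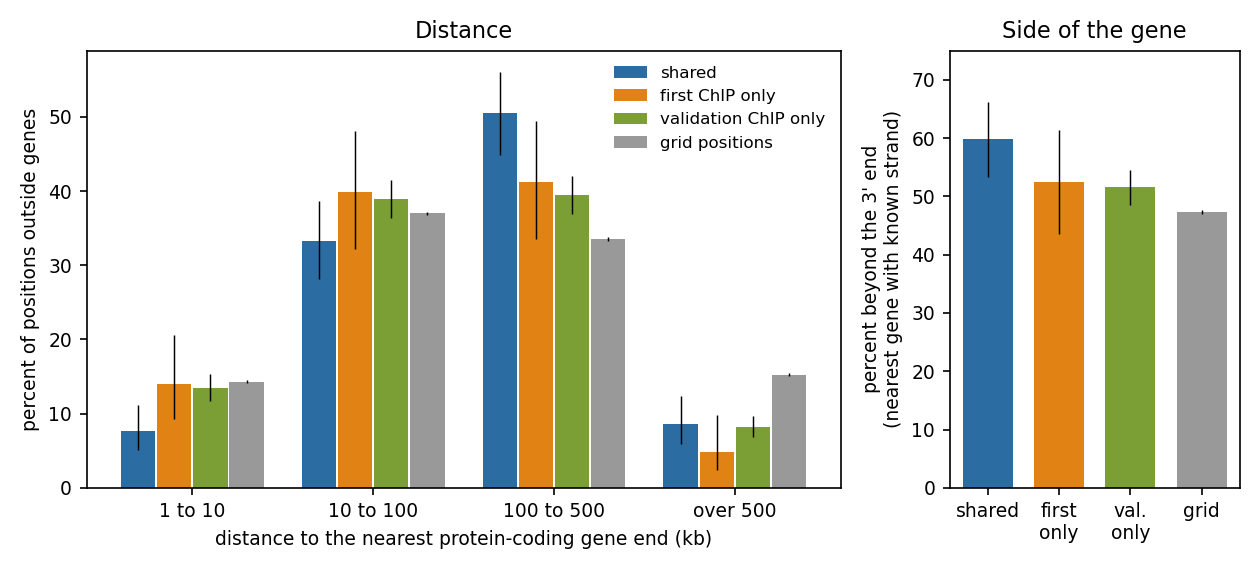
Left, percent of shared (301), first-ChIP-only (143) and validation-only (1403) intervals outside genes, and of grid positions, by distance in kb to the nearest protein-coding gene end. Right, percent that lie beyond the 3′ end of that gene where its strand is known; bars are Wilson 95% intervals. Shared intervals stand highest at 100 to 500 kb (50.5%) and beyond the 3′ end (59.9%).

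Gaps between protein-coding genes that held an interval had a median length of 645 kb over the 301 intervals, beside 525 kb over grid positions. Of the 301, 182 (60.5%) lay in gaps over 500 kb, against 51.0% of grid positions, but 31.9% lay in gaps over 1000 kb, against 33.9%. The 301 occupied 223 gaps: 171 held a single interval, 35 held 2, and 17 held 3 or more, with 60 intervals in those 17. By number, chromosome 2 had the most intervals (32) and chromosomes 15 and 17 the fewest of the autosomes (4 each). Per Mb outside genes, chromosomes 11 (0.440) and 18 (0.424) stood above chromosome 2 (0.405). Chromosome X had none, and there the first ChIP listed 2 intervals and the validation ChIP 31.

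The highest validation score, 43, was reached by 3 intervals, all in gaps over 500 kb. The first of these, chr2:171734145-171735524, was 302 kb from Cbln4, which encodes a secreted cerebellin, and also had the third highest first-ChIP score, 59. Another, chr14:97086500-97087052, stood between Klhl1 and Dach1, 568 and 700 kb away, with a first-ChIP score of 32; Dach1 encodes a dachshund-type transcriptional regulator. The remaining one, chr18:76336435-76336877, was 24.9 kb from Smad2, which encodes a signal transducer of TGF-beta and activin, and had a first-ChIP score of 24.

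Next in order were both intervals near Lmx1b on 1 validation interval of score 41, described further on. An interval between Slc6a15 and Gm21293 (chr10:103984204-103984837) had 40 and one between Sox11 and Dcdc2c (chr12:28278171-28278585) had 38, with first-ChIP scores of 34 and 23. Sox11 encodes a SOX transcription factor. A validation score of 36 was shared by chr13:111409315-111410094, 15.98 kb from Gpbp1, by chr5:82103113-82103727, 276 kb from the latrophilin gene Adgrl3, and by chr15:15946284-15947102, in the desert between the cadherin genes Cdh6 and Cdh9. The last of the 12, with 35, were chr8:41547574-41548382, 131 kb from Frg1, and chr16:54991739-54992351, 232 kb from Zpld1; another 3, of which 2 lay beside Npvf and the other beside Osr1, also had 35.

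The first ChIP gave a partly different order. Its highest score, 81, was at the interval near Gpbp1, followed by 70 at chr16:65513915-65514822, which lay 6.14 kb from Pou1f1, a pituitary POU homeodomain gene. After Cbln4 came chr13:60007558-60008148, 167 kb from Gas1 and with a score of 40. Gas1 encodes a cell-surface co-receptor for Hedgehog ligands. Scores of 38 stood near Lmx1b and at chr1:157957483-157958021, between Sec16b and Brinp2, where the validation score was only 19. The interval between Zfp516 and Tshz1 (chr18:83185253-83185888) had 37, and those beside Lpar1 (chr4:58670194-58671133) and between Plpp3 and Usp24 (chr4:105648834-105649438) had 36. The last 3 of the 12, each with 34, were those beside Slc6a15, at chr8:41592637-41593524 near Frg1 and at chr1:57528691-57529223 near Maip1, and an interval on the Efnb2 side of a desert on chromosome 8 had 34 as well.

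Some intervals stood in groups. Of the 301, 45 (15.0%, 11.4 to 19.4) had another of the set within 50 kb. Among themselves, 17.4% of the 298 shared intervals in gene bodies did, and 7.41% of the 108 at gene ends. A smaller set offers fewer neighbours, so the share at gene ends is not a like comparison. With each validation interval counted once, 38 had a neighbour. The count of 45 also depends on the choice of intervals: it was 14 of 193 when at least 50% of both intervals had to overlap, 18 of 201 when both scores had to reach the median of their list, and 73 of 402 when only protein-coding genes were avoided. Linking intervals at 50 kb or less gave 16 pairs, 3 groups of 3 and 1 group of 4. As for unshared signal, 126 of the 301 (41.9%) had a validation-only interval within 50 kb, and 30 (9.97%) a first-ChIP-only one. The validation list is the longer one, with 4501 intervals against 1287. The same shares were not computed for other sets or grid positions, so they cannot be called high or low.

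The group of 4 lay on chromosome 6 within 5.58 kb, in the stretch between Npvf and Gm38821. The intervals were chr6:51171167-51171656, chr6:51172545-51172825, chr6:51172918-51173695 and chr6:51176851-51177133, with first-ChIP scores of 20, 16, 31 and 19. The validation scores of their partners were 35, 15, 15 and 35. The outer intervals thus had the highest-scoring validation partners, while an inner one was highest in the first ChIP. The middle pair shared 1 validation interval, and the last lay in the widest validation partner of all, 2538 bp, whose summit was 1344 bp from its own. A further 11 validation intervals in the gap overlapped no first-ChIP interval, the highest with a score of 29 at chr6:51196199-51197784. Some of these 11 lay in noncoding gene bodies.

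The 3 intervals before the 5′ end of Lmx1b stood within 5.11 kb of each other in a gap of only 88.7 kb, at chr2:33700481-33701323, chr2:33701591-33701930 and chr2:33705754-33706277. Their first-ChIP scores were 38, 20 and 19, and their validation scores 41, 41 and 26. They were 59.7, 60.6 and 64.8 kb from Lmx1b but 29.1, 28.2 and 23.9 kb from Mvb12b, which encodes an ESCRT-I subunit, so that by distance alone all 3 belong to Mvb12b. This gap was the shortest of the 17 that held 3 or more intervals; the others ran from 447 kb to 3697 kb.

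Counting any flank within 1 Mb, Tbx18 had the most intervals of any gene, 7, on both sides. Of the 7, only 3 had Tbx18 as the nearest protein-coding gene, and the rest lay closer to Cep162 or Nt5e than to Tbx18. On its 3′ side towards Cep162 were 4, at 179, 250, 259 and 326 kb, with first-ChIP scores of 18, 19, 31 and 31 and validation scores of 17, 24, 30 and 20. On its 5′ side towards Nt5e were 3, at 201, 254 and 338 kb, with first-ChIP scores of 18, 24 and 27 and validation scores of 12, 18 and 31. The highest validation score on each side was thus near 30, while the promoter of Tbx18 had 16 in the validation list and no first-ChIP interval. A first-ChIP-only interval next to the outermost 3′ interval missed its validation partner by the 81 bp named above.

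Osr1, which encodes an odd-skipped zinc finger factor of limb connective tissue and joints, had 5. The group of 3 at chr12:9326599-9326894, chr12:9337881-9338231 and chr12:9368644-9369187 was 206 to 248 kb away. First-ChIP scores there were 15, 18 and 29 and validation scores 14, 35 and 19, so each list was highest at a different interval. The other two lay 316 kb away on the same side and 169.9 kb away on the opposite side, with validation scores of 10 and 21.

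Sox11 and Zfhx3, which encodes a zinc finger homeobox factor, also had 5 each. Those of Sox11 ran from 123 to 936 kb. On the Dcdc2c side their validation scores were 13, 14, 21 and 38 from the nearest to the farthest. Those of Zfhx3 were at 16.4 kb beyond its 3′ end and at 189.5, 251, 414 and 670 kb before its 5′ end, with validation scores of 14, 12, 25, 17 and 12. Shox2, a homeobox gene needed for proximal limb bones, had 4, all beyond its 3′ end, at 232, 270.3, 436 and 639 kb, with first-ChIP scores of 24, 25, 19 and 25 and validation scores of 18, 14, 12 and 20. In the validation ChIP, 2 of the 4 Shox2 intervals were thus above the median of the set, 16, and 2 below it. Sox11 was the nearest protein-coding gene to 2 of its 5 intervals, Zfhx3 to 3 of its 5 and Shox2 to 2 of its 4.

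Both deserts beside the HoxD cluster held intervals. In the gap from Atp5g3 to Lnpk, on the Evx2 side of the cluster, 3 lay at chr2:73998758-73999040, chr2:74239501-74239955 and chr2:74272552-74272948, with first-ChIP scores of 19, 16 and 25 and validation scores of 17, 12 and 23. In the gap beyond Mtx2, on the other side, 2 lay at chr2:75029140-75029496 and chr2:75422790-75423130, with first-ChIP scores of 17 each and validation scores of 14 and 12. The highest score in each list, 25 and 23, was on the Lnpk side, but the lowest first-ChIP score, 16, was there too.

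Zpld1, which encodes a zona pellucida domain protein, had 4, the farthest at 232 kb. The gap it shares with Alcam, 2771 kb long, held 5 in all, the most of any gap. Of its group of 3, chr16:55167799-55168179 and chr16:55168275-55169230 shared 1 validation interval of score 30 and had first-ChIP scores of 21 and 28, while chr16:55142648-55143178 had 17 and 22. Pairs within 50 kb also stood near Frg1 (validation scores 35 and 33), near Dcdc2c (21 and 38), on the 3′ side of Tbx18 (30 and 24) and between Eno1b and Dtwd2 (28 and 24).

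**Figure D3:**
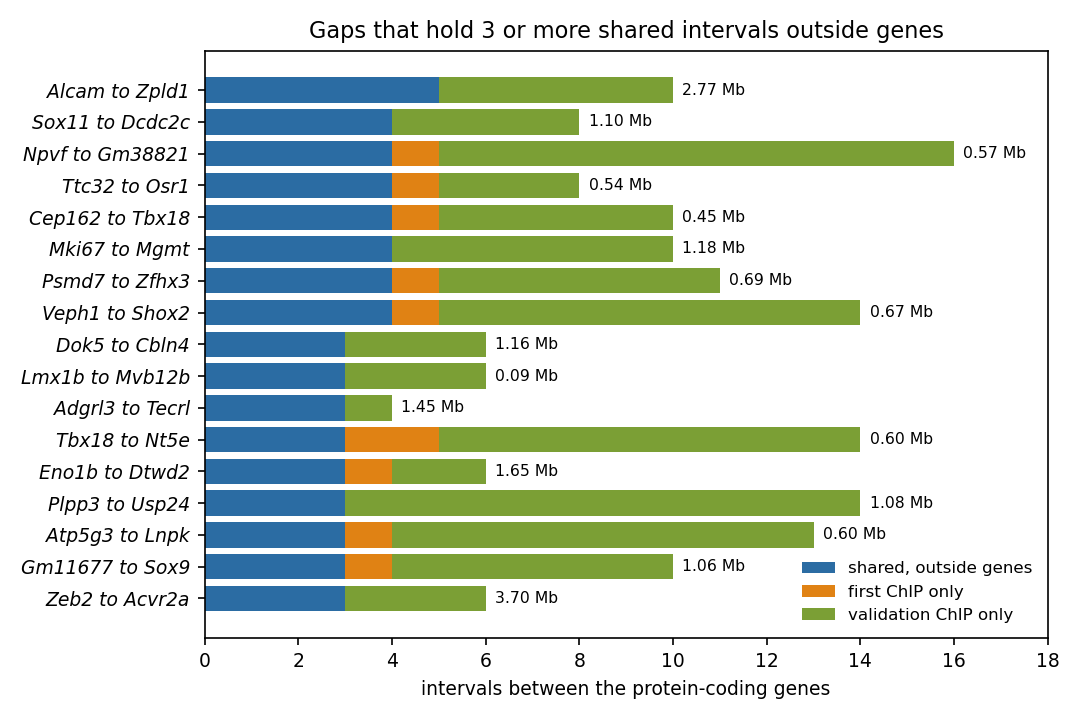
Number of intervals in each of the 17 gaps between protein-coding genes that held 3 or more shared intervals outside genes, split into those shared, listed by the first ChIP only and listed by the validation ChIP only. Labels give the gap length in Mb; shared intervals of such a gap that lie in or near noncoding genes are not drawn. Unshared intervals are drawn wherever they lie in the gap, also in noncoding genes. The Alcam gap has the most shared intervals, 5, and the gaps beside Npvf and between Plpp3 and Usp24 the most validation-only ones, 11 each. Some of the 11 beside Npvf lie in noncoding gene bodies, while all 11 between Plpp3 and Usp24 lie outside genes.

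Named groups of genes were then compared by how many of their members flank an interval. Of 21779 protein-coding genes, 386 (1.77%) did. The share depends on the space beside a gene: it was 16.5% of 1225 genes next to a gap over 500 kb and 0.895% of 20554 other genes. Limb lists stood above the 1.77%, but many of their genes border long gaps, so the count among those genes is given too. The long gap can be on either side of the gene, so the interval itself may lie in a shorter gap on the other side. The lists were also chosen with earlier results of these data known, so their shares only describe the set. No list was tested, and none is called particular.

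Limb transcription factors flanked an interval in 12 of 57 cases (21.1%), through 27 intervals. Of their 22 genes beside a gap over 500 kb, 10 did. The count was 7 with flanks of at most 200 kb, and 5 when only the nearest gene counted: Tbx18, Zfhx3, Shox2, Gli3 and Meis1. Prrx2, Tbx4 and Irx3, named next, were not the nearest protein-coding gene to their interval. By distance the first were Prrx2 (11.3 kb), Zfhx3 (16.4 kb), the hindlimb gene Tbx4 (111 kb), Irx3 (119 kb), the Hedgehog effector Gli3 (120.1 kb), Meis1 (168 kb), Tbx18 (179 kb) and Shox2 (232 kb). Prrx2, a paired-related homeobox gene of limb mesenchyme, had its interval before the 5′ end at chr2:30833502-30834039, with scores of 28 and 23 in the first and validation ChIP. Tbx4 had 17 and 13, Irx3 27 and 20, and Meis1 18 and 10, each beyond the 3′ end. Gli3 had 2, both before its 5′ end, with validation scores of 17 and 10.

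Limb signalling genes did in 10 of 43 cases (23.3%), 5 of them among the 11 beside a long gap. The first by distance were Gli2 (8.48 kb), Dusp6 (31.9 kb), the retinoic acid synthesis gene Aldh1a2 (41.3 kb), the BMP receptor gene Bmpr1b (69.0 kb), the BMP ligand gene Bmp2 (104 kb), the Notch ligand gene Jag1 (132 kb), Hes1 (171 kb) and the R-spondin gene Rspo3 (189.7 kb). Their nearest intervals had validation scores of 10, 14, 14, 33, 28, 19, 10 and 18 in that order. Bmpr1b thus stood highest, but its interval (chr3:142238368-142238791) was the one 1.006 kb from Pdlim5. Bmp2 had 3 intervals, one of them on the Hao1 side with scores of 20 and 28 and 2 on the Fermt1 side with validation scores of 13 and 10.

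Cartilage genes did in 5 of 24 cases (20.8%), 3 of them among the 7 beside a long gap: Nkx3-2 (23.1 kb), Pthlh (163 kb), Sox9 (219 kb), Sox5 (329 kb) and Runx1 (446 kb), which is also on the blood list. The count was 2 within 200 kb, and 2 with the nearest gene only. Sox9, the master gene of chondrocyte fate, had 3 in the gap of 1056 kb towards Gm11677, at 219, 665 and 938 kb, with first-ChIP scores of 17, 20 and 18 and validation scores of 12, 23 and 12. The middle one was the highest in both lists, but it lay nearer to Gm11677, at 391 kb. Sox9 was the nearest protein-coding gene only to the interval at 219 kb. Of joint genes 3 of 18 did (16.7%), all among the 6 beside a long gap: Sulf1, an extracellular sulfatase gene, at 1.58 kb, Osr1 at 169.9 kb and Trps1 at 789 kb. Sulf1 and Trps1 each had 1 interval with a validation score of 13.

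Tendon and connective tissue genes did in 5 of 34 cases (14.7%), although only 1 of their 6 genes beside a gap over 500 kb did. These were Col1a2 (15.8 kb), a collagen I chain gene, and the regulators Eya1 (22.7 kb), Eya2 (28.1 kb), Ebf1 (129 kb) and Six2 (135 kb). The Col1a2 interval at chr6:4557078-4557681 had scores of 32 and 18, and those of the others had first-ChIP scores of 19 to 22 at their nearest interval. The small leucine-rich proteoglycan genes Dcn and Lum, 2 of 15, shared the interval between them at chr10:97536797-97537322, with scores of 18 and 14. The only gene of that list beside a long gap was 1 of these 2, but the interval itself lay in a gap of 47.3 kb. Axon guidance genes did in 5 of 38 cases (13.2%): Gfra1 (15.0 kb), Nrp2 (69.4 kb), Epha7 (109.6 kb), Epha3 (192 kb) and Slit2 (658 kb). Of axon guidance genes beside a long gap 3 of 17 did, against 16.5% of all such genes. Of 16 dorsoventral patterning genes, Lmx1b alone did, and none of the 3 beside a long gap; Lmx1b is not counted when only the nearest gene is.

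Lists for other cell types of the limb bud had few or none. No gene did among 19 of muscle, 15 of endothelium, 20 of ectoderm and 15 of nerve and Schwann cells, nor among 20 of adult liver and gut. These lists have only 1 to 2 genes each beside a gap over 500 kb, so a count of 0 says little about them. On the blood list 2 of 15 did, Runx1 at 446 kb and Ptprc at 689.5 kb, which are the 2 genes of that list beside a gap over 500 kb.

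**Figure D4:**
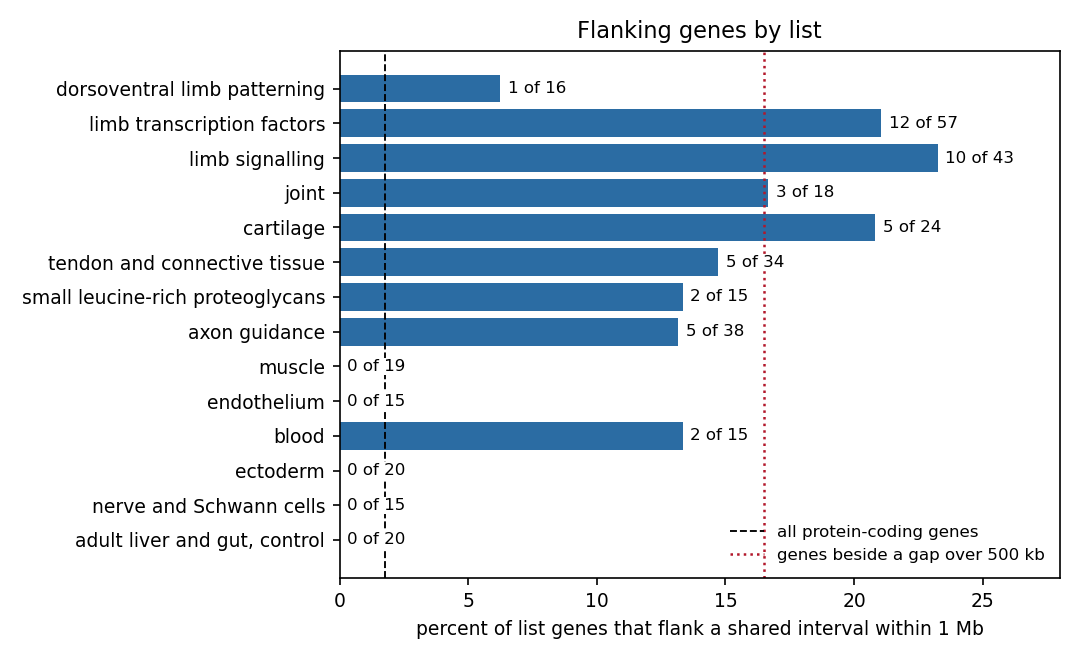
Percent of the genes in each of 14 lists that flank a shared interval outside genes within 1 Mb, with counts. The dashed line marks all protein-coding genes (1.77%) and the dotted line genes beside a gap over 500 kb (16.5%). Limb signalling stands highest at 23.3%, and 5 lists are at 0. The lists were chosen with earlier results of these data known.

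**Figure D5:**
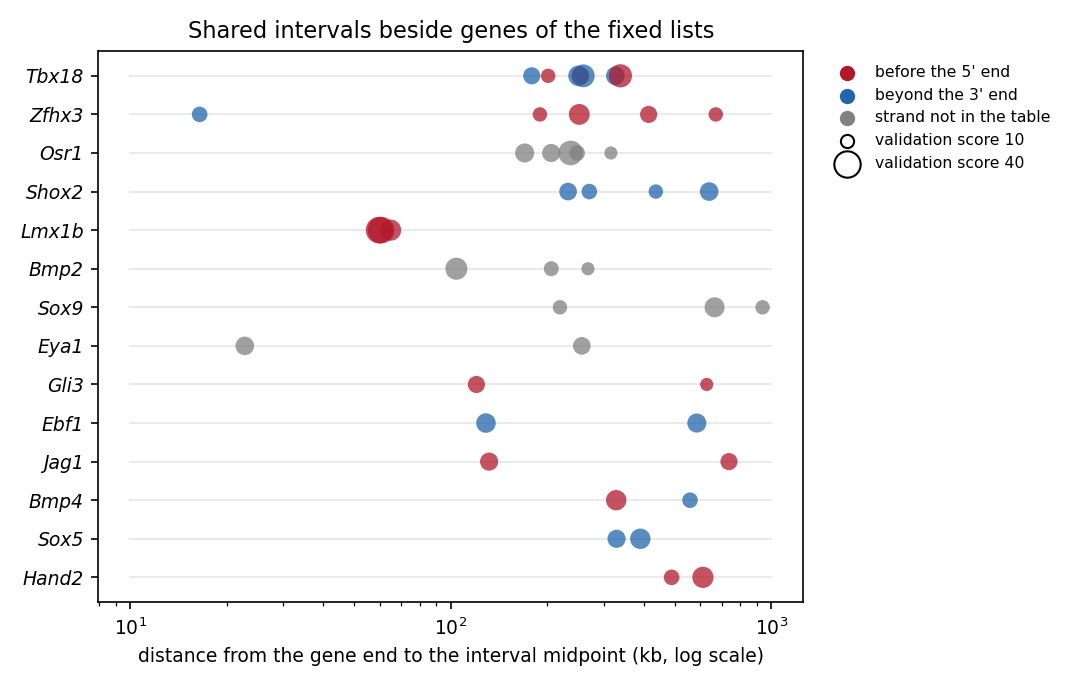
Distance in kb (log scale) from the gene end to each shared interval outside genes, for the 14 list genes with 2 or more such intervals. Point area gives the validation score and colour the side of the gene. Tbx18 has 7 intervals between 179 and 338 kb on both sides, and the 3 of Lmx1b lie together at 59.7 to 64.8 kb.

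The 5 intervals farthest from a protein-coding gene end lay on chromosomes 8, 11 and 14. The farthest, chr14:91019894-91020282, was 1994 kb from the protocadherin gene Pcdh9, with scores of 22 and 19. Those at chr11:39207781-39208068 (1471 kb from Mat2b, scores 20 and 10), chr8:97251315-97252169 (1363 kb from Got2, 29 and 11) and chr8:7323065-7323571 (1294 kb from the ephrin gene Efnb2, 34 and 21) followed. The last of the 5, chr8:97038858-97039205, was 1151 kb from Got2, with scores of 19 and 27, and both intervals near Got2 lie in the desert that ends at the cadherin gene Cdh8. Their first-ChIP scores ran from 19 to 34 and their validation scores from 10 to 27, around the medians of 22 and 16.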

How the data were processed

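Peak intervals and summit scores were made by the authors for 2 LMX1B ChIP-seq samples. The deposited score is a whole number per summit with no stated unit. BWA and build mm10 are named, per the submitters' processing notes; the peak caller, its threshold and the BWA version were not given in the sources used here. Depth is unknown, since the lists carry no reads. Intervals were tied to samples by track name. Coordinates count from 1.

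Genes came from RefSeq GRCm38.p6 (49603 genes, 21779 protein-coding, 340 placed before 3 Mb left out as placeholders), strands and promoters from RefSeq's promoter table, matched by gene ID. Of protein-coding genes 17492 had a strand. Of the list symbols 1 had no match. Overlap, placement and flanks were computed with Python 3.11.15, numpy 2.4.6 and pandas 2.3.3 and tested on simulated intervals. Named intervals were the 12 highest in each list, the 8 largest groups, those at the rule's limits and the 5 farthest; at most 8 genes a list were named by distance. Gaps with 3 or more intervals and genes with an interval on their promoter were named after their values were seen. Intervals and lists were chosen with earlier results of these data known. With 1 sample a group, no test was run. Alternatives were other overlaps, margins, gene models, score filters, neighbour distances and flank limits.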

Additional observations from a re-analysis of the deposited data

How the results depend on the processing

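Of 71 values under settings listed at the outset, 49 stayed within 1.5 times the reported count, or within the 95% interval of the reported median, and 22 did not. The 49 include the gene lists with a count of 0, such as muscle and endothelium, under every setting. Those settings only narrow the choice of intervals or flanks and could not raise a 0, so these values say nothing about stability. The number of intervals itself, 301, was 402 with protein-coding genes only and 201 with the score filter, both inside that tolerance. Overlap of at least 50% of both intervals left 193 of the 301 intervals and raised the median first-ChIP score to 23. It left 14 with a neighbour within 50 kb, and 5 signalling, 3 axon guidance and 1 blood gene with a flanking interval. Requiring the median score in both lists gave medians of 23 and 18 and 18 intervals with a neighbour, where fewer intervals were compared. With protein-coding genes only, 73 of the 402 had a neighbour, where more intervals were compared. Neighbours numbered 21 within 10 kb and 85 within 200 kb. With flanks of at most 200 kb, 237 genes were flanking, among them 7 limb transcription factors, 2 cartilage and 0 blood genes. With the nearest gene only, 235 were, among them 5 limb transcription factors, 2 cartilage, 1 proteoglycan, 0 dorsoventral and 0 blood genes. Motif content of the intervals was not run, since no genome was used here. No paired analysis was possible because each group is 1 sample and the result comes from no test. Depth limits cannot be given for lists without read counts.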

Other observations

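The nearest gene of any biotype was not protein-coding for 236 of the 301 intervals (78.4%). Of the 49603 genes used, only 21779 were protein-coding. The same share was not computed for grid positions or unshared intervals, so it is not read as a trait of the set. The nearest gene end of any biotype was a median of 28.5 kb away and belonged to a lncRNA for 137 of the 301 intervals, to a pseudogene for 71, to a protein-coding gene for 65 and to other small RNAs for the rest. A miRNA gene was nearest to 4. One was 7.16 kb from Mirlet7d (chr13:48528644-48529070, scores 22 and 16).

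A few pairs overlapped although their summits were far apart. The largest summit distances were 1344 bp in the gap beside Npvf, 1312 bp at chr12:73520966-73521237 near Tmem30b and 1216 bp at chr3:6383036-6383368. In these 3 pairs the validation interval was 2538, 2154 and 1915 bp wide, and the first-ChIP interval covered 11.2%, 9.89% and 17.4% of it. Whether both lists mark the same site there was not tested.

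All 301 intervals stood with the same coordinates in the deposited Active Regions list of 735. That list was deposited together with the tracks of both peak lists, so this match is not an independent check of the intervals. The corepressor genes Tle1 and Tle3, which are on none of the lists, also had an interval on their promoter and a distant one: Tle1 at 427 kb, with a shared promoter interval, and Tle3 with 2, at 200.03 and 423 kb. They were picked after the values were seen, from the 17 flanking genes with a promoter interval. Most of the 17 are on no list. Among these, Pcdh18 had a higher validation score at its promoter, 19, against 13 at Tle1 and 12 at Tle3.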
